A study of Mus musculus with 2 samples.

Results

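Fos, Fosb, Fosl2, Jun, Junb, Jund, Atf3, Maff, Egr1 and Ier2, 10 genes of the AP-1 and immediate early group, were described in mouse liver through every probe set whose only gene symbol in the platform annotation is one of these names. That rule found 13 probe sets among 45037, and the 10 genes are among 18193 genes that have a probe set with a single symbol. These genes were selected on differences between the arrays compared here, so their values and counts are a description and carry no test. One array held liver RNA of Bglu3 congenic mice and one that of C57BL/6 apoE-/- control mice. Bglu3 names a blood glucose locus on chromosome 1. C57BL/6 is given in the labels as a strain of both groups, hyperglycemia as the disease state of both and western as the diet of both. In both groups, weaning onto chow was at 3 weeks, the Western diet began at 6 weeks and it lasted 12 weeks. The labels do not state whether the congenic mice also lack apoE, the number and sex of the mice per array, or the hour of tissue collection. The labels likewise give neither the donor strain nor the ends of the congenic segment.

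Immediate early genes are switched on within minutes of a growth factor, cytokine or stress signal, without the need for new protein synthesis. Mitogen-activated protein kinases pass the signal to factors already bound at their promoters. Fos and Jun family proteins then pair through a leucine zipper, with a basic region that grips DNA, to form AP-1. In liver, Fos and Jun are known for their early induction after partial hepatectomy, and Jun is needed for hepatocyte proliferation in regeneration.

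The members did not differ in 1 direction. Fos and Jun were higher on the congenic array, Maff, Atf3 and the brighter probe set of Fosl2 were lower, and Fosb, Junb, Jund, Egr1 and Ier2 lay within 1.5-fold. Values are linear probe set intensities as deposited. Differences are log2(intensity + 5) on the congenic array minus the same on the control array, a scale that understates the difference of dim genes. The brightest probe set of a gene, by mean log2 level, stands for it in counts. Genes are called expressed where it reached the 50th percentile of at least 1 array, at 19.3 (congenic) or 19.7 (control). All 10 members were expressed by this rule. With 1 array per group there was no replicate, no standard error and no test. In bulk liver, fewer cells of a type and less RNA per cell cannot be told apart.

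Over the group, 3 members were higher and 7 lower at any size, with a median log2 difference of -0.33, against 0.04 for all expressed genes. Of the 10 members, 2 were higher by 1.5-fold or more and 3 lower, beside 7.47% and 5.23% of all expressed genes. By 2-fold or more, 2 were higher and 1 lower, beside 1.91% and 1.45%. Of the 7 members at or above 100 on both arrays, 2 were higher by 2-fold or more and 0 lower, beside 0.724% and 0.492% of genes at that level. Nothing is read from these shares, because the members were chosen from this contrast.

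**Figure D1:**
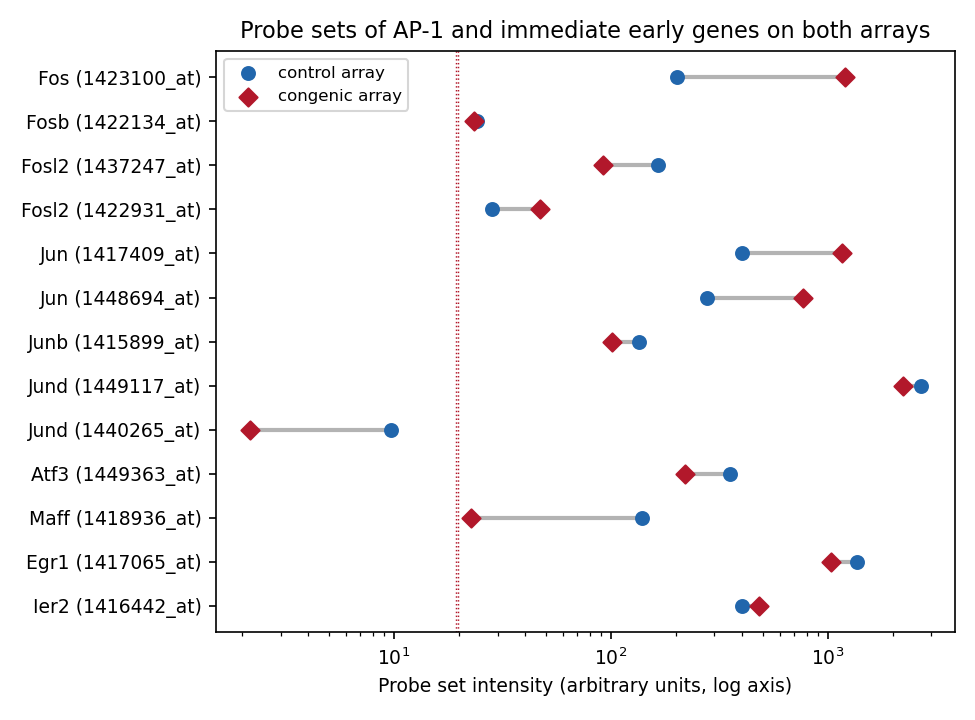
Intensity of each of the 13 probe sets on the control array (circles) and the congenic array (diamonds), on a log axis, with the expression filter of both arrays as dotted lines. Fos and both probe sets of Jun lie far to the right on the congenic array, Maff far to the left, and the probe sets of Fosl2 run in opposite directions.

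Fos, the AP-1 subunit that needs a Jun partner to bind DNA stably, had an intensity of 1195 on the congenic array against 202 on the control. These values stand at the 95.8th and the 83.2nd percentile of their arrays. The log2 difference was 2.54, a 5.80-fold higher level with the pseudocount, and it ranked 16th from the top of 12614 expressed genes. Jun, which can bind as a pair with itself or with Fos, had 2 probe sets. The brighter read 1163 on the congenic array against 402 on the control, a log2 difference of 1.52 and rank 76 from the top. The other read 770.4 and 279, a log2 difference of 1.45. The probe sets of Jun were thus 0.07 apart, and 81.4% of the 3154 genes with exactly 2 expressed probe sets had a gap at least as wide, with a median gap of 0.23. They read the same arrays, so their closeness carries no information about other animals. Fos has a single probe set here, and its difference could not be set against a second.

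Among the 6908 genes at or above 100 on both arrays, a level chosen after the values were seen, Fos was second from the top and Jun 12th. Probe sets of 1 gene disagreed with an SD of 0.34 (log2) over the 5195 genes with several expressed ones, and of 0.24 among the 1299 brightest of these genes. That disagreement was measured within the same arrays, its source was not tested, and it says nothing about the spread between mice.

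Maff, a small Maf protein that has a leucine zipper but no activation domain, had the largest difference of the members in the other direction. Its probe set read 22.6 on the congenic array against 139.7 on the control, a log2 difference of -2.39. It ranked 2nd from the bottom of the expressed genes. The congenic value stands at the 52.9th percentile of its array, just above the expression filter, so the size of this difference depends on the pseudocount. It was -1.91 with a pseudocount of 20 and -2.63 with none. Atf3, a stress-induced bZIP factor that represses as a pair with itself, stood at 219 on the congenic array against 354 on the control. Its log2 difference was -0.68, from a single probe set, and it ranked 467th from the bottom. Atf3 is the only member encoded on chromosome 1, and where it lies relative to the congenic segment is not known here.

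**Figure D2:**
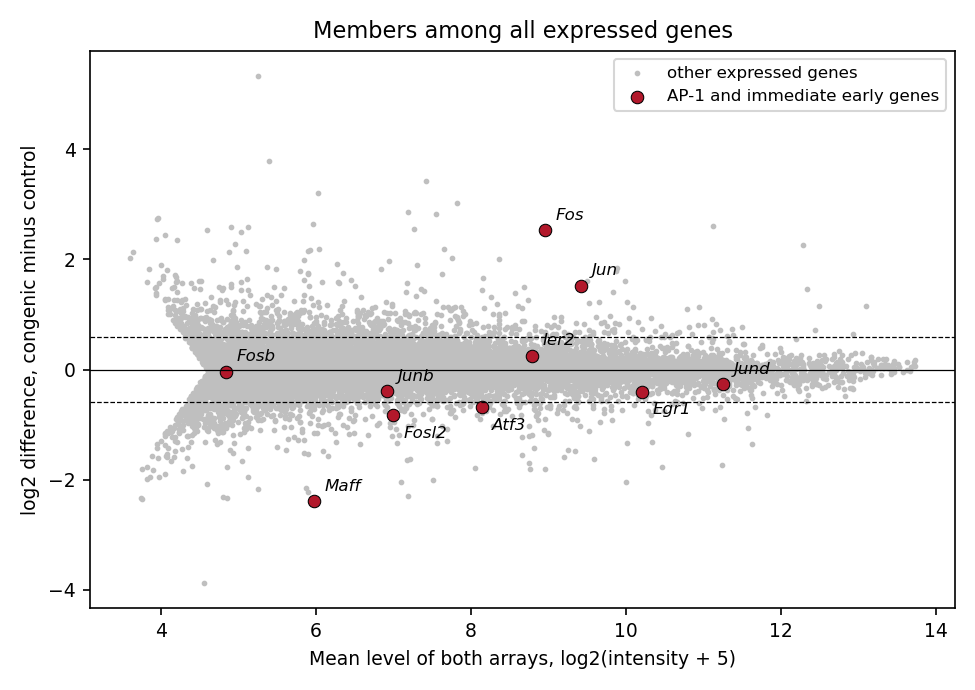
Mean level of both arrays (horizontal, log2 scale) against the log2 difference, congenic minus control (vertical), for the 12614 expressed genes, with the members in red and dashed lines at 1.5-fold. Fos (2.54) and Jun (1.52) lie at levels where few other genes differ as much, and Maff (-2.39) lies near the lower edge.

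Upstream sequences are shown for Fos, Jun, Atf3 and Maff, the 4 members whose probe sets all lay past 1.5-fold on 1 side. RefSeq windows of assembly GRCm38.p6, 300 bases long and reaching 250 bases upstream of a start site, were examined for 8 of the members, in 10 windows, 3 of them for Maff. No window of Egr1 or Ier2 was among them. The searched letters were TGACGT, the core of the cAMP response element bound by CREB and ATF proteins, TGACTCA, the AP-1 site, and TGACATCA, its longer relative in the Jun promoter. The CArG box of the serum response element was searched as CCWWWWWWGG, where W is A or T. Both strands were read, and the motifs were chosen with the windows in view. Capitals mark the matches. The 250 bases before the start site are given 5′ to 3′ on the gene's strand, and for Maff those of the second of its 3 windows.
Fos, chr12:85473640-85473889, plus strand: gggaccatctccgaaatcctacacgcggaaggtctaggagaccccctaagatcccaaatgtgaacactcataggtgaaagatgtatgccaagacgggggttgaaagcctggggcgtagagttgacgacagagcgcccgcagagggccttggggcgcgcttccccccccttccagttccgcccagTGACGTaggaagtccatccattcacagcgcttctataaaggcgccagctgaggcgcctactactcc
Jun, chr4:95052223-95052472, minus strand: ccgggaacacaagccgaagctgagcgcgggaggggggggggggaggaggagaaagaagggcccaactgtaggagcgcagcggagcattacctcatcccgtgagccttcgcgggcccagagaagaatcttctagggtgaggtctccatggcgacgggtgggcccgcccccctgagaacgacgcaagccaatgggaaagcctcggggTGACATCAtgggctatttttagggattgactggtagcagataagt
Atf3, chr1:191183334-191183583, minus strand: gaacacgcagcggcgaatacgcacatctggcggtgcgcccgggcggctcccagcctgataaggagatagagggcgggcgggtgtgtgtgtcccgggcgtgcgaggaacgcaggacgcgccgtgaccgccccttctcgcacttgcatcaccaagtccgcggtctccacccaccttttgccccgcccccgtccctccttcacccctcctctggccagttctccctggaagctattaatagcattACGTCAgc
Maff, chr15:79347270-79347519, plus strand: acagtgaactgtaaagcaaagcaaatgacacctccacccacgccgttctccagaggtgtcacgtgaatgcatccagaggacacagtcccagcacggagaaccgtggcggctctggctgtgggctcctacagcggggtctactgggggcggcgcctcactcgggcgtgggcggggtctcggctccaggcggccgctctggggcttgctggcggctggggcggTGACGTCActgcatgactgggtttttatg

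The Fos window holds TGACGT from 66 to 61 bases before the start site, and the Atf3 window holds its reverse complement from 8 to 3 bases before it. In the second Maff window both orientations overlap from 29 to 22 bases before the start, which makes the full palindromic element. TGACGT was thus present in 3 of the 10 member windows, from 3 genes, and in 7.51% of all 32851 promoter windows. TGACATCA lies 45 to 38 bases before the start of Jun and at the same distance before the start in another window of Maff. It was found in 2 of the 10 member windows and in 3.62% of all windows. Nothing is read from these shares, because the motifs were chosen with the windows in view. Neither TGACTCA, found in 5.20% of all windows, nor the CArG box, found in 1.63%, was matched in the member windows examined. Egr1 and Ier2 had no window in this search, so nothing is said of them. The letters TGACGT occur in windows of Fos, higher on the congenic array, and of Atf3 and Maff, lower on it. Among the Maff windows only the second holds them. Whether the letters bear on the differences was not tested. A match describes letters only, and a missing one says only that they are not in that window.

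Fosl2, the Fos family member also known as Fra-2, was read by 2 probe sets that disagreed in direction. The brighter stood at 91.6 on the congenic array against 166 on the control, a log2 difference of -0.82. The dimmer stood at 47.2 and 28.2, a log2 difference of 0.65. A gap this wide, 1.47, or wider occurred in 1.93% of the genes with exactly 2 expressed probe sets. Both probe sets pass the expression filter, and no direction is given for Fosl2 beyond that of its brighter one. Fosb, a further partner of the Jun proteins, was near the filter at 23.3 and 24.1, with a log2 difference of -0.04.

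The other Jun proteins did not follow Jun. Junb, which can counter Jun at shared targets, read 101 on the congenic array against 134 on the control (log2 difference -0.40). Jund, the family member that is abundant in resting cells, read 2233 and 2694 with its bright probe set (log2 difference -0.27). A second Jund probe set stood below the expression filter on both arrays, at 2.16 and 9.72, and is given only for completeness with its log2 difference of -1.04. The levels of Jun were thus higher on the congenic array, and both Junb and the bright probe set of Jund were slightly lower.

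The members outside the bZIP family differed little. Egr1, a zinc finger factor induced through the serum response element, read 1030.5 on the congenic array against 1360.0 on the control (log2 difference -0.40). Ier2, an immediate early gene named for its rapid response, read 479 and 403 (log2 difference 0.25). Egr1 and Junb were the nearest to 1.5-fold among the members inside it, and Atf3 was the nearest outside it.

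**Figure D3:**
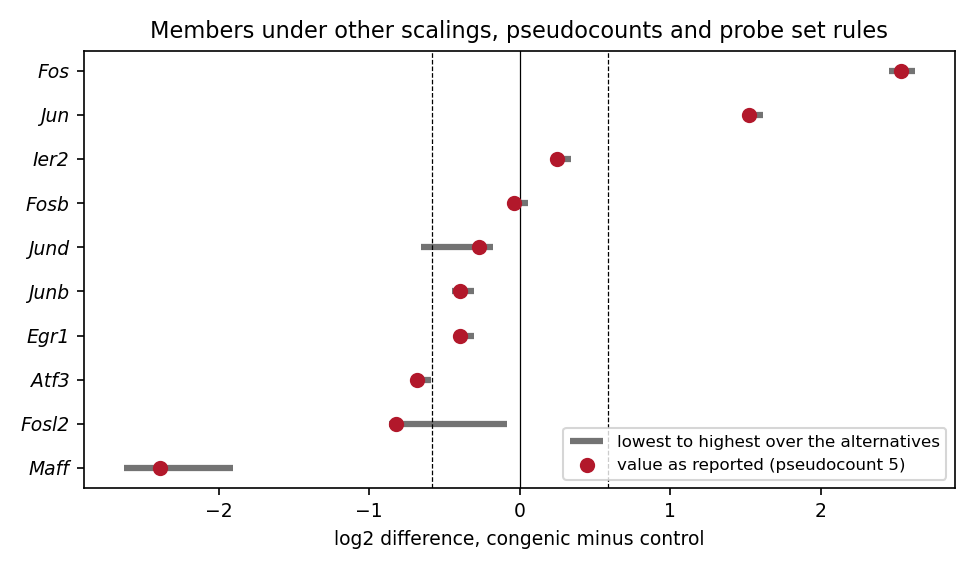
Log2 difference of each member as reported (red) and its range over the other scalings, pseudocounts and probe set rules (grey bar), with dashed lines at 1.5-fold. Fos, Jun, Atf3 and Maff stay past 1.5-fold throughout, Atf3 only narrowly, since its bar reaches -0.588, next to the line. The wide bars of Fosl2 and Jund come from averaging their probe sets.

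Genes that act before, beside and after the members were read from lists that were likewise drawn up with results of these arrays known. Among upstream kinases and serum response element factors, 2 of 14 expressed genes were higher by 1.5-fold or more and 1 lower, with a median of 0.0014. Srf, the factor that binds the serum response element, stood at 137 on the congenic array against 295 on the control (log2 difference -1.08), but its probe sets ranged from -1.08 to 0.35 and no gene of the list was lower when probe sets were averaged. Elk3, an ETS partner of Srf, differed by 0.61, with a range over 4 probe sets from 0.22 to 0.87. Egfr, the epidermal growth factor receptor, differed by 0.59 with a range over 7 probe sets from -0.69 to 0.59.

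Of 12 other expressed AP-1, Maf and related bZIP genes, 0 were higher and 1 was lower by 1.5-fold or more, with a median of 0.06. That one was Batf2, an AP-1 family member without an activation domain, at 57.6 against 90.3 (log2 difference -0.61). The lower count was 0 with a pseudocount of 20, with plain _at probe sets, under the 75th percentile filter and when centred on the hybridisation controls, and 2 after quantile normalization, after loess subtraction and with no filter. The higher count was 1 with plain _at probe sets and with no filter.

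Of 36 other immediate early and rapid response genes, 3 were higher and 3 lower by 1.5-fold or more, with a median of -0.03. Ccn1, a secreted matricellular protein, read 497 on the congenic array against 65.4 on the control (log2 difference 2.83), and its 4 probe sets ranged from 0.80 to 2.98. Gadd45g, a growth arrest and stress gene, read 615 and 231 (log2 difference 1.40). Sik1, a kinase induced by cAMP and chosen for naming after its value was seen, was also higher (1.04). It read 53.0 on the congenic array against 23.2 on the control, the latter near the filter, and its other probe set differed by 0.48. The lower ones were the orphan receptor gene Nr4a3 (-0.84, with another probe set at 0.90), the kinase gene Plk3 (-0.64) and, named after its value was seen, the factor gene Klf4 (-0.61).

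Of 19 feedback inhibitors, 3 were higher and 2 lower by 1.5-fold or more, with a median of -0.08. Zfp36, which destabilises early gene transcripts, read 1160 on the congenic array against 720.4 on the control (log2 difference 0.68). Dusp1, a phosphatase that switches off stress-activated kinases, read 1764 and 1164 (0.60) and was named after its value was seen. The related phosphatase genes Dusp2 and Dusp4 differed by 1.08 and -1.05 at low levels, 31.1 against 12.0 and 10.0 against 26.2. Each passed the expression filter only on the array where it was higher. Spry4, a Sprouty inhibitor of receptor kinase signalling, differed by -1.15, with another probe set at 0.42. No inhibitor was lower under the 75th percentile filter. Textbook AP-1 target genes had a median of -0.25 over 11 expressed, with 1 higher and 0 lower, and the higher one was the adhesion receptor gene Cd44 (0.85), whose 4 probe sets ranged from 0.09 to 0.85. No target was higher when probe sets were averaged, and 2 were with no pseudocount, with no filter or when centred on the hybridisation controls.

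**Figure D4:**
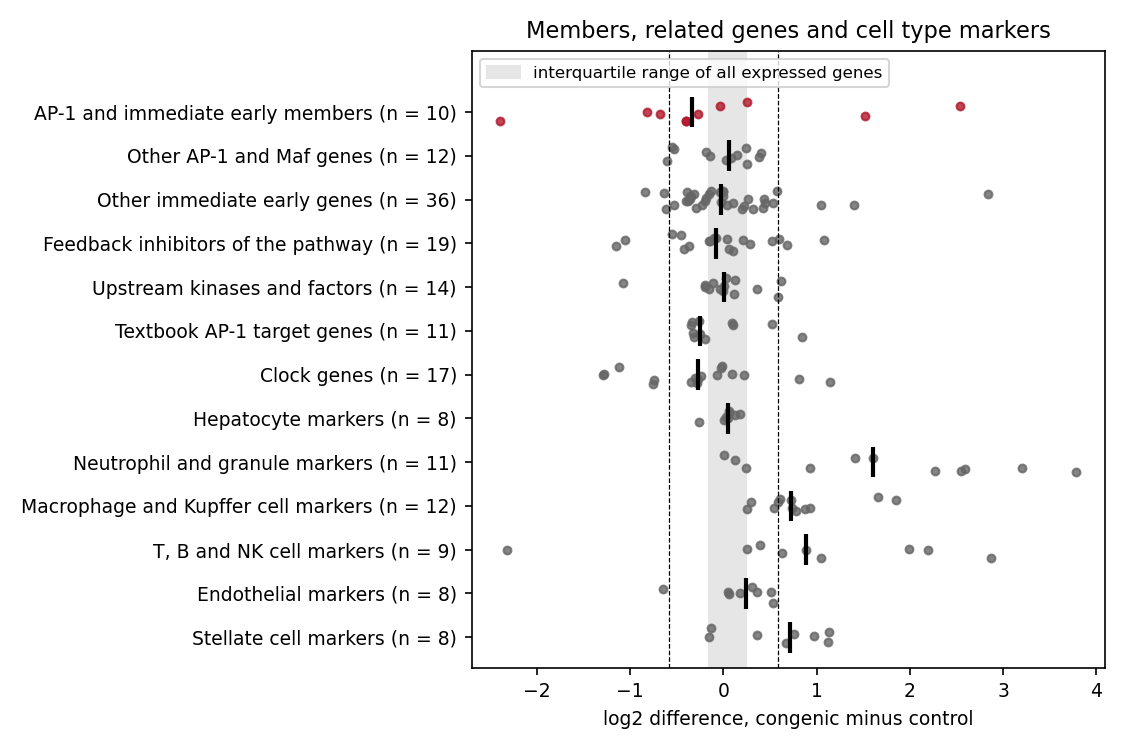
Log2 difference, congenic minus control, of each expressed gene (points) of the members, of 6 lists of related genes and of 6 lists of cell type markers, with list medians as black bars, dashed lines at 1.5-fold and the interquartile range of all expressed genes in grey. The members spread from -2.39 to 2.54, related genes mostly lie within 1.5-fold, and the medians of neutrophil, macrophage, lymphocyte and stellate cell markers lie to the right.

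Several other measures differed between the same arrays, and their part in the values of the members was not tested. Hepatocyte markers, which check the labelled tissue, had all 8 expressed genes within 1.5-fold, and their summed intensity was 83918 (congenic) against 80038 (control). The highest intensities of the arrays, 14440 (congenic) and 13395 (control), were those of Fgb and Apoa1 of this list. Whether signals near that top still follow RNA amount was not tested, so equal hepatocyte content is not read from the sums. Neutrophil and granule markers exceeded 1.5-fold upward in 8 of 11 expressed genes, with a summed intensity over all markers with a probe set of 4292 against 1373, and 4 of them were below the expression filter on the control array only. Camp and Prtn3, of neutrophil granules, led with log2 differences of 3.78 and 3.20, and were below the filter on the control array, at 6.35 and 16.6. The 3 within 1.5-fold were the receptor genes Csf3r (0.009) and Cxcr2 (0.12) and the granule gene Elane (0.24). Most of the neutrophil sum came from S100a8 (1769 against 577) and S100a9 (1492 against 559). Macrophage and Kupffer cell markers were higher in 8 of 12, led by Marco (1.85) and Timd4 (1.66), with sums of 27597 and 16982. Lymphocyte markers (T, B and NK cells) were higher in 6 of 9 and lower in 1, with sums of 1218 and 383. Jchain (2.87) and Ighm (2.19, with probe sets from -0.59 to 2.66) were the highest of them, and Prf1 (-2.32, with another probe set at -0.08) the lowest. Prf1 passed the expression filter on the control array only, at 57.2 against 7.5 on the congenic array. Jchain (391 against 49.4) and Ighm (429 against 89.8), both immunoglobulin-related, supplied most of the congenic sum. Of the T cell markers, Cd3g was higher (0.88), Cd8a lay within 1.5-fold (0.39), and Cd3e and Cd4 were not expressed. Stellate cell markers were higher in 5 of 8, including Rgs5 (1.14, with probe sets from 0.40 to 2.84) and Col1a1 (1.12), with sums of 4028 and 2370. Acta2 (0.75) and Pdgfrb (0.67), counted among the higher ones, had probe sets down to -0.78 and -0.54. Des (-0.16), Reln (-0.13) and Lrat (0.36) lay within 1.5-fold. Endothelial markers were higher in 0 and lower in 1 of 8, the lower one being Lyve1 (-0.64), with sums of 3589 and 3267.

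Clock genes, which set daily rhythms in liver, were lower by 1.5-fold or more in 5 of 17 and higher in 2, with a median of -0.28. Ciart (-1.29) and Per2 (-1.28, with probe sets up to -0.47), a repressor of the loop, were the lowest. Arntl, the gene of the activator BMAL1, differed by 1.14 and its partner gene Npas2 by 0.81, with other probe sets at -0.05 and -0.99. Npas2 passed the expression filter on the congenic array only, at 37.9 against 19.55 on the control. Control probe sets at the 3′ and 5′ ends of a transcript, whose ratio reflects RNA integrity, had close ratios on the arrays, at 1.68 and 1.65 for actin and 1.25 and 1.23 for Gapdh.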

How the data were processed

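Liver RNA was hybridised to 1 Affymetrix array per group, from 8 µg of total RNA per the labels' protocols. The table the authors deposited gives probe set intensities on a linear scale. Their summary of probes and scaling of arrays is not stated in the labels or the file. Intensities were used as deposited. The median difference of all probe sets was 0.0031 on the log2 scale, and 18 hybridisation control probe sets averaged -0.09. Differences were computed as log2(intensity + 5) in Python 3.11.15 with pandas 2.3.3, and the procedure was tested on simulated data.

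Gene names come from the platform annotation. List genes were matched by symbol or RefSeq synonym, and genes without a probe set of a single symbol were not analysed here. The members and lists were chosen with earlier results of these data known. Named are all members and, of each list, the 2 highest and 2 lowest genes past 1.5-fold, besides those stated as named after their values were seen. With 2 arrays no likeness between the patterns of genes can be measured. Alternative scalings were quantile normalization, median centring, subtraction of a loess fit (span 0.3) and centring on the hybridisation controls (added after the data were seen). Other alternatives were pseudocounts of 20, 1 and none, other probe set rules and other expression filters. The number of arrays limits the precision.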

Additional observations from a re-analysis of the deposited data

How the results depend on the processing

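Under every alternative run, 2 members were higher by 1.5-fold or more and 3 lower, and 2 were higher and 1 lower by 2-fold or more. Plain _at probe sets, no filter and expression on both arrays left every member value unchanged, so these settings could not move the counts. The 75th percentile filter changed no value and kept 9 members. The 3 lower ones were not the same genes when probe sets were averaged, since Fosl2 then stood at -0.09 and Jund at -0.66. Jund passed 1.5-fold there only through its second probe set, which was below the expression filter on both arrays. Fos ranged from 2.45 to 2.63, Jun from 1.49 to 1.62, Atf3 from -0.72 to -0.59 and Maff from -2.63 to -1.91. Fosb, at -0.04, reached 0.05 when centred on the hybridisation controls. The median of the members stayed between -0.40 and -0.24.

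The counts over all expressed genes depended on the pseudocount and the filter by construction, since dim genes add large differences. Against 942 higher and 660 lower by 1.5-fold, there were 548 and 349 with a pseudocount of 20, 1578 and 1451 with no filter, and 387 and 213 with the 75th percentile. With expression required on both arrays 382 were lower. Against 241 higher and 183 lower by 2-fold, there were 105 and 64 with a pseudocount of 20, 383 and 365 with no filter, 141 and 82 with expression on both arrays, and 103 and 60 with the 75th percentile. Of the values of single members and of lists, 474 stayed within 0.34 (log2) or within 1.5 times the reported count, and 48 did not. Neutrophil markers had 4 higher genes where both arrays had to pass the filter and 5 under the 75th percentile, against 8, and stellate cell markers had 3 when probe sets were averaged, against 5. No upstream gene was higher after quantile normalization, loess subtraction or a pseudocount of 20, against 2. No clock gene was higher when probe sets were averaged, against 2. Centring on the hybridisation controls gave 5 higher and 1 lower of the other immediate early genes, against 3 and 3. Low signal limits Fosb, Maff on the congenic array and the second Jund probe set. With 1 array per group, no value here bears on the spread between mice.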
